A study of Caenorhabditis elegans with 4 samples.

Results

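Chromosome V is the longest chromosome of Caenorhabditis elegans, and its GEI-11::GFP regions were taken as all called regions that the deposited lists place on V. They numbered 931 of the 6192 regions of the combined list, which was called on both ChIP replicates together, 671 of the 4368 regions of the replicate 1 list and 415 of the 2617 regions of the replicate 2 list. The anti-GFP ChIP group held 2 libraries and the input DNA group held 2 libraries. All came from whole L3 hermaphrodites of strain OP179, grown at 20 degrees Celsius, which carry the unc-119(ed3) mutation on chromosome III and the transgene wgIs179. The transgene holds unc-119(+) and gei-11 fused to the TY1, EGFP and 3xFLAG tags and was brought in by bombardment. Both groups carry it, and the labels describe no group without the tag. The labels do not say whether replicates were separate worm cultures, so their spread may be technical only.

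GEI-11, also called SNPC-4, is a Myb-type DNA-binding subunit of the complex that switches on small nuclear RNA genes, and in worms it also acts at piRNA genes. The autosomes of this worm have a gene-dense centre with little recombination, flanked by arms that recombine more and carry more repeats and young gene families. On chromosome V those arms hold large families of chemoreceptor genes, and the chromosome carries the tandem repeats of 5S ribosomal RNA and SL1 spliced leader RNA genes. These facts are background: a genome and gene annotation in WS220 coordinates were not used here, so regions are given by position, without gene names or sequence.

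Positions are WS220 coordinates, counted from 1, as the authors' lists give them. The length of the chromosome was taken as 20.9 Mb, the last position called in any list, and was cut at 6.97 and 13.9 Mb into 3 equal parts. These are called the left arm, the right arm and the centre, and a region belongs to the part that holds its midpoint. Each region is described by its strength, the −log10 of the authors' q-value. Strength orders the regions of 1 list and grows with sequencing depth, so strengths of different lists are not read as levels of binding. The ChIP libraries had 3773496 and 3560372 reads and the input libraries 8331974 and 7222788, per the authors' sample sheet.

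The first question was whether GEI-11::GFP regions of chromosome V lie evenly along it. They did not: the arms were less densely covered than the centre. The density was 41.2 regions per Mb in the left arm, from 287 combined regions (Poisson interval, exact 95%, 36.6 to 46.2), and 36.7 in the right arm, from 256 (32.4 to 41.5). In the centre it was 55.7, from 388 regions (50.3 to 61.5). The density of both arms together was 0.70 times that of the centre (95% exact interval 0.61 to 0.80, two-sided exact binomial test, p = 3.5e-07 after Benjamini-Hochberg adjustment over 6 exact tests).

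Each replicate list showed the lower density of the arms by itself. In replicate 1 the left arm had 26.3 regions per Mb and the right arm 28.6, against 41.5 in the centre, and the arms were at 0.66 times the centre. In replicate 2 the left arm had 16.8 and the right arm 17.5, against 25.3 in the centre, and the ratio was 0.68. The test counts regions as independent, which neighbours are not. When regions within 10 kb of each other were merged, the ratio was 0.82 and the call was lost (exact binomial test, adjusted p = 0.070). The median gap was 9916 bp in the centre and 14514 bp in the arms, so this merging joins more regions where they are denser. That shrinks a density difference even without clustering, so the merged value cannot tell how much clustering adds to it.

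**Figure D1:**
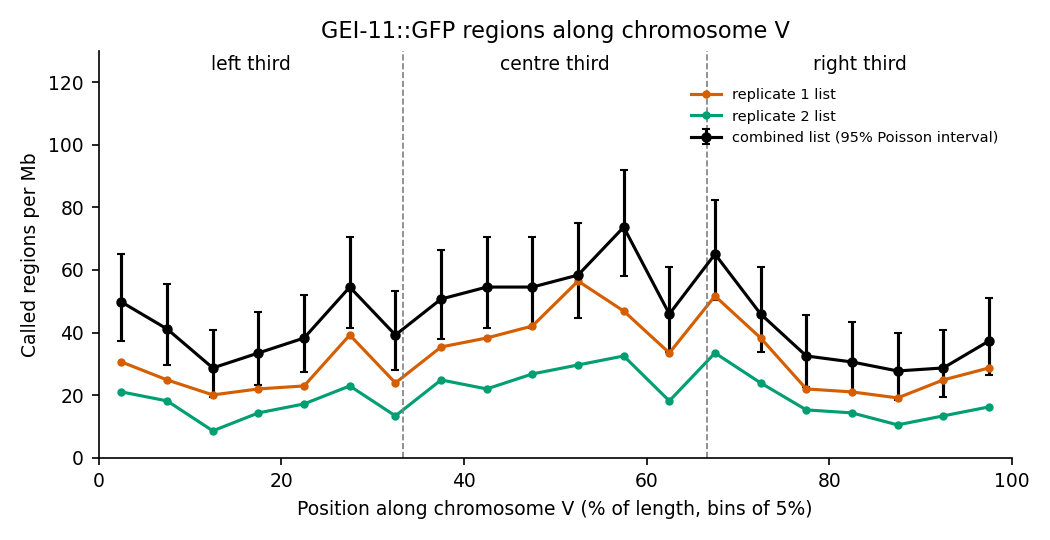
Called regions per Mb (vertical axis) in 20 bins of 5% of the length of chromosome V (horizontal axis), for the combined list with 95% Poisson intervals and for each replicate list, with dashed lines at the borders of the centre. All lists have their highest stretch between the middle of the chromosome and the start of the right arm, and low stretches inside each arm.

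With the chromosome divided into equal parts, no difference between the arms passed the test. The left arm was 1.12 times as dense as the right in the combined list (95% exact interval 0.94 to 1.33), and this missed the threshold (exact binomial test, adjusted p = 0.24). In replicate 1 the ratio was 0.92 and in replicate 2 it was 0.96, so the replicates did not give the left arm as the denser one. With the centre set from 6 to 16 Mb, the approximate bounds of the low-recombination domain, the left arm was 1.29 times as dense as the right and the test passed (exact binomial test, adjusted p = 0.020). These borders were tested on the combined list only, so whether each replicate list gives this difference was not tested.

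At a finer scale, the number of combined regions in the 20 full bins of 1 Mb ran from 26 to 68, with a median of 42.5. The fullest bin lay from 11 to 12 Mb, where the combined list had 68 regions, replicate 1 had 56 and replicate 2 had 33. Next was the bin from 12 to 13 Mb, with 62 combined regions, 38 in replicate 1 and 24 in replicate 2. The bin from 8 to 9 Mb followed with 60, 44 and 27. The bin from 11 to 12 Mb was also the fullest of replicate 1. In both replicates other bins were fuller than those from 12 to 13 Mb and from 8 to 9 Mb. From 10 to 11 Mb replicate 1 had 54 and replicate 2 had 34, its highest count. From 14 to 15 Mb they had 53 and 33. The emptiest full bin lay from 19 to 20 Mb in the right arm, with 26 combined regions, 23 in replicate 1 and 10 in replicate 2. The border of the right arm did not mark a fall in density, since the bin from 14 to 15 Mb still held 59 regions and the next one 39. Both ends of the chromosome were fuller than the middle of their arm. The first 1 Mb held 51 regions, against 32 to 35 in each of the bins from 2 to 5 Mb, and the bin from 5 to 6 Mb held 52. The last, shorter bin held 36, or 39.8 per Mb, against 26 to 32 in each of the bins from 16 to 20 Mb.

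The longest stretches without a combined region lay in the arms. The longest was 230783 bp, from 19666713 to 19897495 in the right arm, and held 1 region of replicate 1 and 0 of replicate 2. The next was 221607 bp, from 2343809 to 2565415 in the left arm, and the one after it 179418 bp, from 2908981 to 3088398. Neither of these held a region of either replicate list. The authors' sample sheet lists 0 reads mapped to several places, and how much of these stretches uniquely mapped reads can cover was not tested.

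The next comparison asks how chromosome V stands among the chromosomes. With 44.5 regions per Mb (Poisson interval, exact 95%, 41.7 to 47.5), V was at 0.67 times the density of the other chromosomes together, which had 66.4 per Mb (exact binomial test, adjusted p = 4.1e-31). Taken singly, chromosome X had 46.9 per Mb, within the interval of V, and chromosome I had 48.0. Chromosome II had 60.6 and chromosome III 67.5. Chromosome IV, the site of most piRNA genes, was the densest with 106 per Mb. Without it the others had 55.2 per Mb and V was at 0.81 times (exact binomial test, adjusted p = 2.3e-08). Both tests count regions as independent, so their p-values are too small where regions cluster. After merging within 10 kb the ratio to all others was 0.90 and did not pass (exact binomial test, adjusted p = 0.070). Here too merging joins more regions where they are denser, so it shrinks the difference by itself.

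The lean towards the centre was not particular to V. The centre held 41.7% of the V regions (95% exact interval 38.5 to 44.9%), 40.3% of those of chromosome I, 38.9% of chromosome II, 38.1% of chromosome III, 30.6% of chromosome IV and 22.5% of chromosome X. Against the other autosomes together, the odds that a V region lay in an arm were 0.77 times as high (95% interval 0.67 to 0.89, Fisher exact test, adjusted p = 0.00086). This difference rested on chromosome IV. Without IV the odds were 0.90 times as high and did not pass (Fisher exact test, adjusted p = 0.24), and against I, II and III one by one they were 0.95, 0.89 and 0.86 times as high, none of which passed (Fisher exact tests, adjusted p from 0.18 to 0.61). Merging within 10 kb also ended the call against all autosomes (0.94, Fisher exact test, adjusted p = 0.68), with the limit of merging given above.

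**Figure D2:**
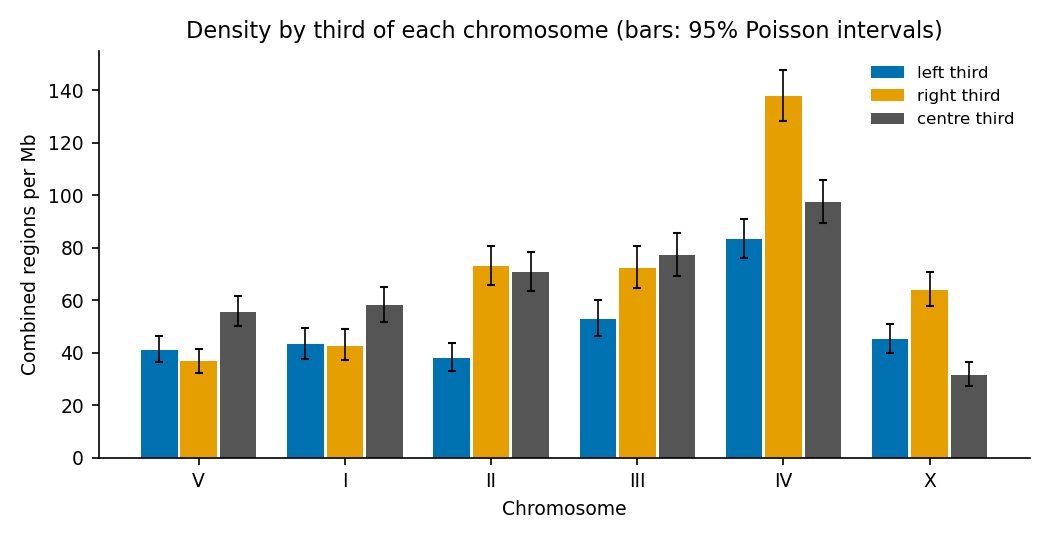
Combined regions per Mb (vertical axis, from 0) in the left arm, the right arm and the centre of each chromosome, cut into 3 equal parts (horizontal axis), with 95% exact Poisson intervals. On chromosome V the left arm at 41.2 and the right arm at 36.7 lie below the centre at 55.7; chromosome I has the same shape, and chromosome X has its lowest bar in the centre.

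Chromosome I came closest to V in shape. Its left arm had 43.2 and its right arm 42.8 regions per Mb, against 58.1 in its centre, and its arms were at 0.74 times the centre. On chromosomes II and III the right arm was about as dense as the centre, with 72.9 against 70.8 per Mb on II and 72.4 against 77.2 on III. On V the interval of the right arm, 32.4 to 41.5, did not reach that of the centre.

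The strongest regions of V lay in its centre, and each was present in the replicate 1 and replicate 2 lists. The first spanned 866 bp from 8500034 to 8500899 and was number 18 of the whole combined list. Its strength was 125 in replicate 1, 121 in replicate 2 and 148 in the combined list. The second, from 12490880 to 12491522, had 112 in replicate 1, 95.4 in replicate 2 and 142 in the combined list. The third, from 11979555 to 11980774, had 107 in replicate 1, 110 in replicate 2 and 140 in the combined list. In all 3 the combined list gave a higher strength than either replicate.

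The fourth region spanned 8228597 to 8229562, with 101 in replicate 1 and 102 in replicate 2. The fifth spanned 8348739 to 8349487, with 85.1 in replicate 1 and 86.8 in replicate 2. The sixth, from 8247393 to 8248240, had 63.5 in replicate 1 and 65.4 in replicate 2. Of these 6 strongest regions, 4 lay within 272 kb of each other, between 8228597 and 8500899. That stretch, chosen after its values were seen, held 24 combined regions, of which 10 were in both replicate lists, and the median strength there was 3.9. Its strong regions thus stood among many weak ones.

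The strongest regions of the left arm were weaker than those of the centre. The first spanned 5575860 to 5576447 and had 41.2 in replicate 1, 50.2 in replicate 2 and 78.2 in the combined list. Another, from 5586901 to 5587683, lay 10453 bp to its right, with 47.4 in replicate 1 and 35.9 in replicate 2. Further out, a region of 2694 bp from 1803949 to 1806642 had 24.4 in replicate 1 and 17.1 in replicate 2, and one from 1151220 to 1152111 had 20.8 and 18.7. Replicate 2 was the higher one in the first of these 4 regions and replicate 1 in the others.

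In the right arm, 4 of the 5 strongest regions found in both replicates lay near its inner border. The strongest spanned 14468541 to 14469067, with 43.2 in replicate 1, 57.6 in replicate 2 and 82.1 in the combined list. Those from 14028310 to 14028898, from 14092233 to 14092994 and from 14875860 to 14876727 had combined strengths of 70.4, 64.3 and 60.9. The fifth, near the end of the chromosome from 20455577 to 20456043, had 20.6 in replicate 1, 22.0 in replicate 2 and 39.2 in the combined list. Over the 15 regions named for the 3 parts, the widths ran from 467 to 5981 bp and replicate 1 had the higher strength in 7.

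Strengths of 50 or more were found in 16 V regions of the combined list, or 1.72% against 1.61% of all combined regions, with 3 in the left arm, 4 in the right arm and 9 in the centre. They all lay between 5575860 and 14876727, a span of 44.5% of the chromosome. To the left of this span were 210 combined regions with a highest strength of 44.9, and to its right 197 with a highest strength of 39.2. In replicate 1 the 6 regions of strength 50 or more were all in the centre. In replicate 2 there were 9, with 1 in the left arm, 1 in the right arm and 7 in the centre.

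**Figure D3:**
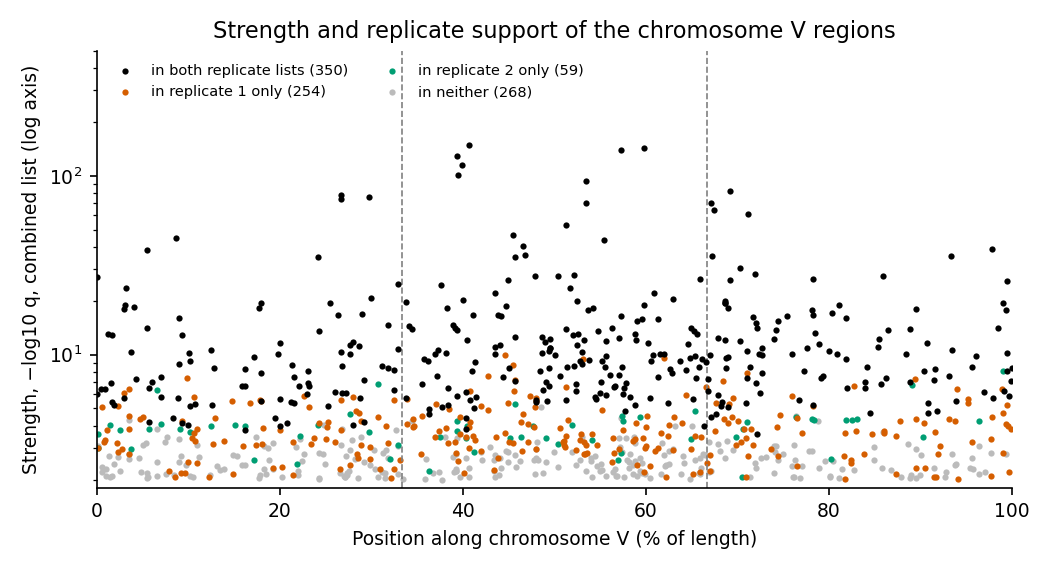
Strength of each of the 931 combined V regions (vertical axis, −log10 q on a log axis) against its position in % of the length of chromosome V (horizontal axis), coloured by the replicate lists that overlap it, with dashed lines at the borders of the centre. Regions above 50 lie in the middle of the plot, and the 169 regions of strength 10 or more are all in both replicate lists.

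The typical region differed less along the chromosome than the strongest did. The median strength was 3.7 in the left arm (interquartile range 2.57 to 6.01), 4.38 in the right arm (2.77 to 8.38) and 4.11 in the centre (2.79 to 8.79). Strengths of at least 10 were reached by 36 regions or 12.5% in the left arm, by 54 or 21.1% in the right arm and by 79 or 20.4% in the centre. On V as a whole this share was 18.2%, against 17.4% of all combined regions of the series. In the replicate 1 list the share was 7.65% in the left arm, 9.55% in the right arm and 11.4% in the centre, against 10.3% of its whole list. The replicate 2 list had 8.55% in the left arm, 10.7% in the right arm and 12.5% in the centre, against 12.6% of its whole list. The left arm had the lowest share in each list, and no test was made over regions.

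The centre share was also counted among the strong regions of V, without a test. Of the 10 strongest, 7 lay in the centre, and of the 50 strongest 26 did. Of the 200 strongest it was 99, or 49.5% (95% exact interval 42.4 to 56.6%), against 41.7% of all V regions. The share did not rise steadily along the ranking: in 4 strength classes of equal size, from the strongest to the weakest, it was 48.5%, 36.5%, 44.8% and 36.9%.

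Replicate support was the next measure. A combined region counted as found in a replicate if a region of that list overlapped it by at least 1 bp. Of the 931 V regions, 350 were found in both replicates, which is 37.6% (95% exact interval 34.5 to 40.8%), against 34.8% (33.5 to 36.1%) on the other chromosomes and 35.2% of all combined regions. The odds were 1.13 times those of the other chromosomes (95% interval 0.98 to 1.31), which did not pass (Fisher exact test, adjusted p = 0.15). After merging within 10 kb the odds on V were 0.83 times those of the other chromosomes, and this did not pass either (Fisher exact test, adjusted p = 0.089). A merged stretch counted as in both lists if each replicate had a region anywhere in it, gaps included, even at different sites. A further 254 V regions were in replicate 1 only, or 27.3% against a share of 28.1% in the whole list. Another 59, or 6.34% against 6.09%, were in replicate 2 only. The 268 in neither list made up 28.8% against 30.7%. All 4 shares were near those of the whole list.

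Among regions with a q-value below 0.001 the support of V did pass as higher. There, 350 of 628 V regions, or 55.7%, were in both lists, against 49.7% on the other chromosomes and 50.6% of all regions below this q-value (odds ratio 1.27, Fisher exact test, adjusted p = 0.0086). The number of V regions in both lists was 350 without this cut as well, so the cut took out only V regions that were not in both. On the other chromosomes the number in both lists went from 1829 to 1828. Without chromosome IV the others had 53.2% at this threshold, and the 95% exact interval of V, 51.7 to 59.7%, takes in that value. Narrow regions under 50 bp made up 2.9% of V and 12.8% of chromosome IV. Their part in the difference at this threshold was not tested. Over all q-values, leaving them out took the odds for V from 1.13 to 1.08 times those of the other chromosomes. This did not pass (Fisher exact test, adjusted p = 0.33).

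No difference in support between arms and centre passed the test when regions were counted one by one. In the left arm 92 of 287 regions were in both lists, or 32.1% (95% exact interval 26.7 to 37.8%). In the right arm it was 104 of 256, or 40.6% (34.6 to 46.9%), and in the centre 154 of 388, or 39.7% (34.8 to 44.8%). The odds for the arms together were 0.86 times those of the centre (95% interval 0.65 to 1.13, Fisher exact test, adjusted p = 0.27). The left arm also had the largest share in neither list, 33.4%, against 25.4% in the right arm and 27.6% in the centre. With regions within 10 kb merged, 45.1% of 315 merged stretches in the arms were in both lists against 62.0% of 192 in the centre, and the test passed (odds ratio 0.50, Fisher exact test, adjusted p = 0.0015). The replicate regions could lie anywhere in a stretch, gaps included, so this is not the support of single sites. A merged stretch held on average 1.72 regions in the arms and 2.02 in the centre, and the part of this in the result was not tested.

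**Figure D4:**
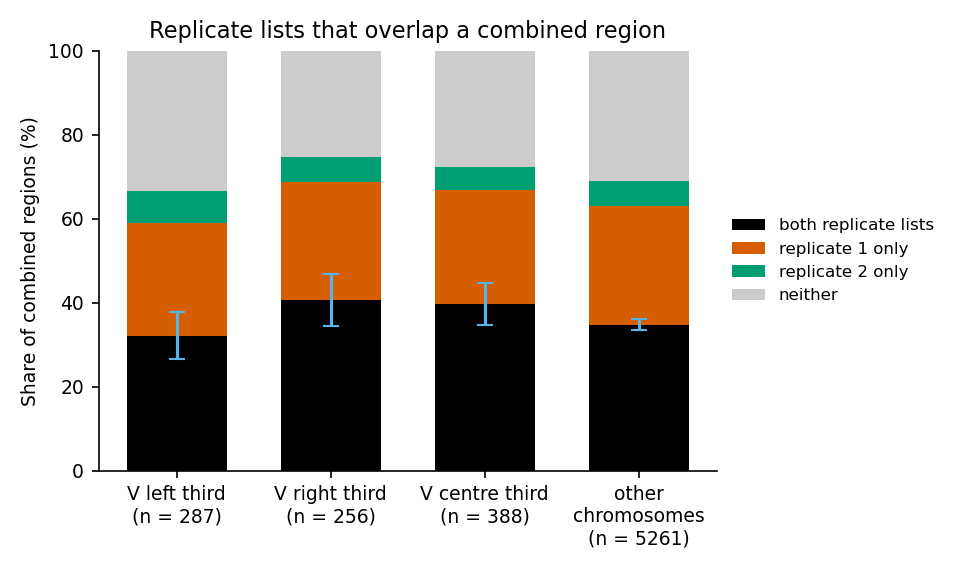
Share of combined regions (vertical axis, %) overlapped by both replicate lists, by 1 of them or by neither, for the left arm, the right arm and the centre of chromosome V and for the other chromosomes. The blue bars are 95% exact intervals of the share in both lists, and those of the left arm, 26.7 to 37.8%, and the centre, 34.8 to 44.8%, overlap.

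Support rose with strength on V as in the whole list. The combined list was called on the reads of both replicates together, so this relation is in part built in. It is not a separate measure of how well the replicates reproduce each other. In 10 rank classes of the combined list, the 87 V regions of class 1 were all in both replicates, as were 101 of 104 in class 2 and 74 of 87 in class 3. In class 4 it was 63 of 98, or 64.3% (95% exact interval 54.0 to 73.7%), against 45.9% on the other chromosomes and 51.0% on those without chromosome IV. In class 5 it was 17 of 76, or 22.4%, against 18.6% on the other chromosomes and 21.7% without chromosome IV. In class 6 it was 8 of 81, or 9.88%, against 2.79% and 4.27%. Classes 7 to 10 held 398 V regions and 0 of them were in both lists, which allows a share of up to 0.754%. For counts of 0 the limit is 3 counts over the number of regions, not an exact interval. That limit covers counting error only, and the lack of such regions among weak ones follows in part from the shared reads. The difference in the middle classes was seen among 10 classes and was not tested.

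Seen from the replicate lists, most V regions of replicate 2 were also in replicate 1. Of its 415 regions, 356 overlapped one of replicate 1, or 85.8% (95% exact interval 82.0 to 89.0%), against 84.5% over the whole list. The share was 81.2% in the left arm, 87.7% in the right arm and 87.5% in the centre. Of the 671 regions of replicate 1, 361 overlapped one of replicate 2, or 53.8%, against 51.1% over the whole list. In replicate 1, 52 of the V regions overlapped no combined region, or 7.75% against 8.45% of its whole list. The strongest of these, from 18092122 to 18092280, had a strength of 3.14, and the next, from 11642443 to 11642535, had 2.93. In replicate 2 it was 0 of 415, against 0.726% of its whole list. The limit of 3 counts allows a share of up to 0.723%, too close to that value to read a difference.

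The positions of shared regions were compared over 356 pairs that were each other's largest overlap, which left out 315 V regions of replicate 1 and 59 of replicate 2. The pairs were chosen by overlap, so their distances are a description only. The midpoints lay a median of 28.2 bp apart, with an upper quartile of 63.5 bp. The starts differed by a median of 34.5 bp and the ends by 37.5 bp, and the median width was 407 bp in replicate 1 and 414 bp in replicate 2. The midpoint shift was 31 bp in the left arm, 27.5 bp in the right arm and 28 bp in the centre.

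Strengths of the paired regions rose together, with a Spearman rho of 0.72 and a Pearson r of 0.97 over the 356 pairs. The rho was 0.75 in the left arm, 0.72 in the right arm and 0.72 in the centre. These are descriptions across regions of the same pair of libraries, which were called against the same combined input. Replicate 1 had the higher strength in 224 pairs, and the median absolute difference was 1.53.

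**Figure D5:**
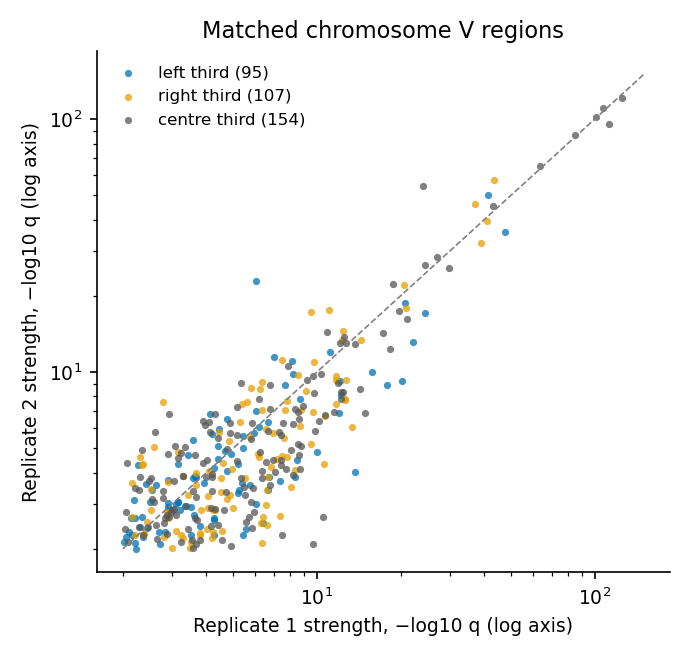
Strength in replicate 2 (vertical axis) against strength in replicate 1 (horizontal axis), both −log10 q on log axes, for the 356 paired regions of chromosome V, coloured by arm or centre; the dashed line marks equal strength. The strongest pairs lie close to the line and belong to the centre, while weak pairs scatter widely and mostly below it.

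The median V region was 365 bp wide (quartiles 274 and 508 bp). It was 343 bp in the left arm, 368.5 bp in the right arm and 373 bp in the centre. Together they covered 416 kb, or 1.99% of the chromosome, with 1.82% of the left arm, 1.62% of the right arm and 2.53% of the centre. Stronger regions were wider: over the same 4 strength classes the median was 548 bp in the strongest, 391 bp in the second, 314.5 bp in the third and 263 bp in the weakest. The difference in width between arms and centre was smaller than that between these classes and changed sign between the replicate lists.

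The 3 widest V regions lay in the arms and were made of several pieces in each replicate. The widest spanned 5981 bp in the left arm, from 6224129 to 6230109, with a combined strength of 76.0. Replicate 1 had 3 regions there, with strengths of 20.3, 14.8 and 6.04, and replicate 2 had 2, with 9.23 and 22.9. The replicates covered 73.9% and 92.0% of it, and their strongest pieces lay at opposite ends: that of replicate 1 spanned 6224251 to 6225846 and that of replicate 2 spanned 6226820 to 6229996.

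The second widest spanned 3877 bp in the right arm, from 14685578 to 14689454, with a combined strength of 30.6. Each replicate had 2 regions there, with strengths of 7.46 and 6.23 in replicate 1 and 11.1 and 8.58 in replicate 2. The third spanned 3730 bp, from 19519492 to 19523221, with a combined strength of 35.4. Each replicate had 3 regions there, and none was stronger than 7.61. Such joining was rare on V: 13 combined regions held 2 or more regions of replicate 1, and 5 held 2 or more of replicate 2. Of the 44 V regions at least 1000 bp wide, 26 lay in the arms and 18 in the centre, or 40.9%, against 41.7% of all V regions. Found in both replicates were 34 of them, or 77.3%, against 85.0% of the 227 regions this wide on the other chromosomes and 83.8% over the whole list. No test was made of this.

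At the other end, 27 V regions, or 2.9%, were under 50 bp wide, against 5.51% of all combined regions. Only chromosome IV, with 12.8%, had a higher share than V. The share was 2.62% on chromosome I, 2.70% on II, 1.83% on III and 1.81% on X. None of the 27 was in both replicate lists, which allows a share of up to 11.1% by the limit of 3 counts. One of them, 32 bp from 10138749 to 10138780, was with 5.06 the strongest V region in neither replicate list. The next such regions were 273 bp from 15978286 to 15978558 with 4.51 and 799 bp from 11986080 to 11986878 with 4.41. The last lies 5305 bp from the third strongest region of V.

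The final measure was how V regions were spaced. The median gap between neighbours was 13321 bp in the left arm and 16072 bp in the right arm, against 9916 bp in the centre. No gap in the combined list was shorter than 200 bp. Gaps of at most 10 kb made up 44.8% in the left arm, 39.2% in the right arm and 50.6% in the centre. In the replicate lists the order of these shares was not kept: replicate 2 had 34.5% in the left arm, 28.9% in the right arm and 28.0% in the centre, while replicate 1 had 35.2%, 37.4% and 41.0%.

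Joined at gaps of at most 10 kb, the 931 regions fell into 507 runs. Of these, 277 were single regions, or 29.8% of all V regions, and 22 runs held 5 or more, 10 of them in the arms and 12 in the centre. The fullest runs held 9 regions each, and the one in the left arm lay from 5575860 to 5602662 and spanned 26803 bp. It began with the strongest region of that arm, and its members had strengths from 3.11 to 78.2, with 5 of the 9 in both replicate lists. The run of 9 in the centre, from 8212883 to 8235684, had strengths from 2.24 to 129, with 3 in both lists and 4 in neither. The wider of the runs of 8, from 9074238 to 9096185, also lay in the centre; of its regions 3 were in both lists and the highest strength was 22.1. In each of these 3 runs 2 or 3 regions of strength above 10 stood beside weaker ones.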

How the data were processed

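ChIP-seq with goat anti-GFP antibodies was done on formaldehyde-crosslinked worms, with input DNA as control, per the labels' protocols. The authors deposited 3 region lists with a q-value for each region, made with PeakSeq per the source column of the lists. The combined list came from merged ChIP alignments and the replicate lists from 1 ChIP library each, with a combined input for all, per the sample sheet. Read counts per library are those of the authors' sample sheet, which looks rounded for uniquely mapped reads (2500000 and 2800000 for ChIP, 6000000 for each input) and lists 0 reads mapped to several places. The file headers name WormBase WS220 and the sample sheet WS190, and comment lines record that regions were moved between builds after calling. Shapes changed on V in 0 cases. The sources used here name neither the aligner nor the calling settings.

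The lists were read unfiltered with pandas 2.3.3, and exact tests were made with SciPy 1.17.1 and adjusted over 6 tests (over 4 where replicate support was not tested). Intervals cover counting error over called regions only, and neighbouring regions are not independent. Reads amplified by PCR and not marked by molecular identifiers are not independent either. The density ratio of arms to centre and the share in both lists were tested on simulated regions, placed independently of each other. The other steps were not tested in this way. Alternatives were single replicate lists, a q-value below 0.001, regions of 50 bp or more, merging within 1000 bp and 10 kb, regions in both replicate lists, 50% reciprocal overlap, replicate lists of equal length, other borders of the centre, full chromosome lengths and comparisons without chromosome IV. Regions were named by rule: the 5 strongest of each part found in both replicates, the 3 widest, the 3 strongest in neither replicate list, the 2 strongest of each replicate list outside the combined list (replicate 2 had none), and the 3 fullest bins and runs. The sixth strongest region and the longest empty stretches were chosen after their values were seen. The chromosome, the rules and the tests were chosen with earlier results of these data known.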

Additional observations from a re-analysis of the deposited data

Results flagged for a closer look

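The split of regions between arms and centre differed between chromosome V and the other autosomes together by a direct test: the odds of lying in an arm were 0.77 times as high on V (Fisher exact test, adjusted p = 0.00086). The value was 0.62 against chromosome IV alone and from 0.86 to 0.95 against chromosomes I, II and III one by one, where none passed (Fisher exact tests, adjusted p from 0.18 to 0.61).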

How the results depend on the processing

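Of 55 alternatives to the 6 tested values, 41 kept the direction and the side of the threshold. The density ratio of arms to centre ran from 0.64 to 0.82 and lost its call only with regions within 10 kb merged (0.82, exact binomial test, adjusted p = 0.070); it was 0.66 and 0.68 with 1 ChIP replicate left out. So did V against the other chromosomes (0.90, exact binomial test, adjusted p = 0.070), which was 0.69 and 0.71 with 1 replicate left out. The left arm over the right, 1.12, turned to 0.92 and 0.96 with 1 replicate left out and to 0.88 among regions in both replicate lists. It passed with the centre from 6 to 16 Mb (1.29, exact binomial test, adjusted p = 0.020), a setting tested on the combined list only. The odds of V regions to lie in an arm lost the call with 10 kb merging (0.94), without chromosome IV (0.90) and against chromosomes I, II and III alone (0.95, 0.89 and 0.86); they were 0.75 and 0.76 with 1 replicate left out. Support on V against the others passed at a q-value below 0.001 (1.27) and turned to 0.83 with 10 kb merging, where support in the arms passed as lower (0.50). After merging, the regions of the replicates could lie at different sites of a stretch. Merging leaves fewer units to test and joins more regions where they are denser, which shrinks density differences by itself. The other causes were not tested.

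Untested values moved as follows. The median strength in the arms minus that in the centre, -0.12, was -0.16 and -0.42 with 1 replicate left out, -0.67 at a q-value below 0.001 and -1.25 among regions in both lists. The median width difference, -18 bp, was -11 and 4 bp with 1 replicate left out, 0.5 bp at a q-value below 0.001 and 18.5 bp among regions in both lists. The median gap, 11989.5 bp, was 16194.5 and 31738.5 bp with 1 replicate left out and 36594 bp among regions in both lists. The number of V regions, 931, was 671 and 415 with 1 replicate left out, 350 in both lists and 507 after 10 kb merging. Alternatives for the medians, the number of V regions and the correlation of replicate strengths, the comparisons with single autosomes and support without chromosome IV were chosen after seeing the data. No paired analysis was possible because called regions give no separate value for either input library. Single regions carry no error.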
